A study of Mus musculus with 6 samples.

Results

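Receptors for reproductive and pituitary peptide hormones were followed in fibroblasts sorted from mouse ventral skin. The set held 8 genes, chosen with earlier results of these data known. They included the oxytocin receptor Oxtr, the vasopressin receptor Avpr1a, the relaxin family receptors Rxfp1 and Rxfp2, and the prolactin receptor Prlr. The growth hormone receptor Ghr and the gonadotropin receptors Lhcgr and Fshr completed the set. Of the 8, 6 had a probe set assigned to that gene alone, among 22180 genes measured. Each of the 6 had a single such probe set. Prlr and Lhcgr had none in the platform annotation and were not analysed here. The tested samples were 3 arrays of fibroblasts from the nipple-like skin of K14-PTHrP (KrP) transgenic females, which make parathyroid hormone-related protein (PTHrP) in keratinocytes of the epidermis under the keratin 14 promoter. They were set against 3 arrays from telogen ventral skin of wild-type (WT) female littermates. Both groups were on a C57BL/6 background and 8 to 12 weeks old. The labels name 3 mice as the cell source and say that cells were pooled before sorting, without saying how mice map to samples, so p-values here reflect spread among the samples that may be technical in part or whole. The transgene acts in the skin from keratinocytes, so the fibroblasts themselves are not the cells meant to make the hormone.

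These receptors belong to 2 structural families. Oxtr and Avpr1a are G protein-coupled receptors that act mainly through Gq and calcium, Rxfp1, Rxfp2, Lhcgr and Fshr are G protein-coupled receptors with large leucine-rich outer domains that act mainly through Gs and cAMP, and Prlr and Ghr are class I cytokine receptors that signal through JAK2 and STAT5. Oxytocin is best known for contracting the myoepithelium of the mammary gland at milk let-down and the muscle of the uterus. Relaxin softens connective tissue in pregnancy and is needed for growth of the mouse nipple, and growth hormone acts through stromal cells in mammary duct growth.

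Expression was given as log2 values, 1 per probe set and array, so that a difference of 1 is a doubling of signal. The array medians lay between 6.34 and 6.43, and correlations between arrays over all probe sets were 0.986 to 0.994 within groups and 0.975 to 0.989 across groups. As a guide to background, the value of 6.31 was used, the 95th percentile over 1105 olfactory receptor genes, and differences near or below that level are compressed. The fibroblast markers were high, with Pdgfra, one of the CD140 genes used in the sort, at 13.47 ± 0.06 in KrP and 13.23 ± 0.10 in WT samples (SD, n = 3 each). The sort removed cells with CD45, CD31, CD117 and CD49f. Ptprc (CD45) averaged 4.65 in KrP and 4.85 in WT samples, and Kit (CD117) 6.18 and 6.23, with WT 1 (6.32) and WT 2 (6.44) just above the guide. Of 11 haematopoietic markers, 7 averaged under the guide to background. Cd68 and Csf1r lay above it in all 6 arrays. Cd68 averaged 9.34 in KrP and 9.48 in WT samples, and Csf1r 7.92 and 7.19. Pecam1 (CD31) and Itga6 (CD49f) lay above the guide to background in all 6 arrays. Pecam1 averaged 6.68 in KrP and 6.73 in WT samples. Itga6 had 6.49, 8.16 and 8.01 in KrP samples, against 7.16, 7.91 and 7.16 in WT samples. WT 2 stood apart from the other arrays in markers of epithelium, given further on. The transgene product Pthlh was not analysed here, so no direct check of the genotype labels was made.

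Of the 6 receptors, Oxtr and Rxfp1 rose in KrP fibroblasts and Ghr fell, while Rxfp2, Avpr1a and Fshr did not pass the test. The test was limma across all genes, with a call at a Benjamini-Hochberg adjusted p under 0.05. By that rule 1.15% of all 22180 genes were higher and 1.03% lower in KrP samples, or 2.18% in either direction. Some lists below also have counts at an unadjusted p under 0.05. The share of all genes at that level was not counted, so those counts have no baseline and describe the lists only. The median log2 fold change of the 6 receptors was 0.52, against 0.01 over all genes. Over the 9 fibroblast markers it was 0.48, with 0 called. The 3 KrP values lay all above the 3 WT values for 4 of the receptors, which held for 11.4% of all genes, and all below for Ghr, which held for 8.93% of all genes. Since the receptors were chosen with earlier results of these data known, these comparisons with all genes describe the set. They are no evidence about such receptors as a class.

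**Figure D1:**
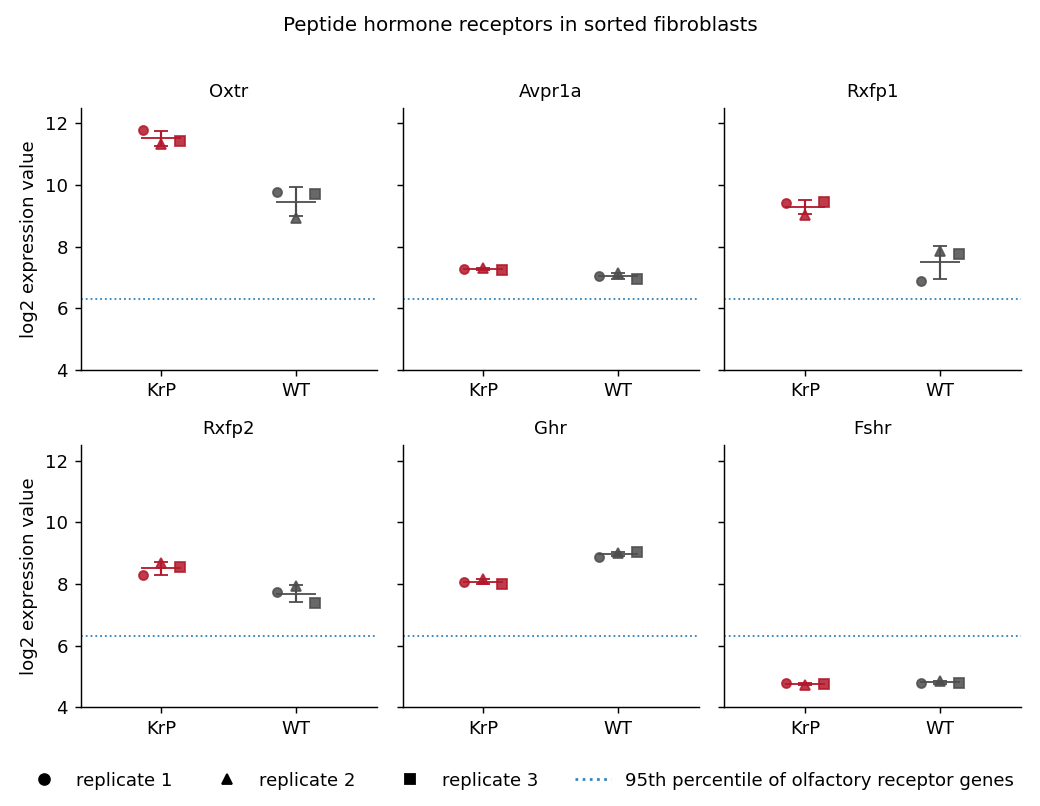
Log2 expression value of each receptor in every array, KrP left and WT right, with the mean and SD (n = 3 each) and a marker shape for each replicate number. The KrP values of Oxtr (11.31 to 11.79) and Rxfp1 (9.03 to 9.45) stand clear above WT, those of Ghr (8.00 to 8.17) clear below, and Fshr lies under the dotted guide to background in all 6 arrays.

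Oxtr, the receptor of oxytocin, had the largest difference of the set. Its log2 value was 11.79, 11.31 and 11.43 in KrP samples 1 to 3, against 9.76, 8.91 and 9.69 in WT samples 1 to 3. The lowest KrP value stood 1.55 above the highest WT value, a gap wider than the range within KrP (0.48) or WT samples (0.85). The means were 11.51 ± 0.25 in KrP and 9.45 ± 0.47 in WT samples (SD, n = 3 each), a 4.16-fold rise (95% confidence interval 2.86 to 6.06; log2 fold change 2.06 ± 0.24 SE, limma adjusted p = 0.00616). It ranked 12th by size among the 255 genes called higher. WT sample 2 was the lowest of all 6, and KrP sample 2 the lowest KrP sample. The difference between samples of the same number was 2.03, 2.40 and 1.74. Oxtr was the 1 receptor of the set whose call held in every fit that left out an array, with limma adjusted p from 0.00603 (without KrP 2) to 0.0477 (without KrP 3).

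The promoter of Oxtr is shown because this receptor rose beside the oestrogen receptor Esr1, described further on. The window runs from 250 bases before to 50 after the RefSeq start, on the minus strand of GRCm38.p6 at chr6:112489776-112490075. Capitals mark the only match in it to the motifs searched, the AGGTCA core of an oestrogen response element, which starts at base 153 of the window.
Oxtr promoter: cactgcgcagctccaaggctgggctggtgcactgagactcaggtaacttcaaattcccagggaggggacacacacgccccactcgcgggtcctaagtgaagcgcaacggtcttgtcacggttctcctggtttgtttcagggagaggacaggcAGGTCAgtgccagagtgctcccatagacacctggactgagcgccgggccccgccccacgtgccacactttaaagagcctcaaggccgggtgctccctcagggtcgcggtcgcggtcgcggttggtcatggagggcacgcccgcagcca
The motifs searched on both strands were AGGTCA, the full palindromic oestrogen response element (which contains AGGTCA), the STAT element TTCNNNGAA and the cAMP response element TGACGTCA. Of 32851 promoter windows of the same length, 16.3% held AGGTCA, 0.0213% the full element, 8.3% the STAT element and 1.79% the cAMP response element. A match to a short motif of this frequency describes the letters and says nothing of binding.

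Avpr1a, a vasopressin receptor related to Oxtr, showed a small difference. Log2 values were 7.27, 7.29 and 7.23 in KrP samples 1 to 3, against 7.03, 7.15 and 6.96 in WT samples 1 to 3. The groups were separated by 0.08 only. The log2 fold change was 0.22 ± 0.11 SE, with a 95% confidence interval of -0.03 to 0.47 (limma adjusted p = 0.38), so a rise of up to 1.38-fold lay within the interval. It also missed the threshold with the replicate number as a block (limma adjusted p = 0.262).

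Rxfp1, the receptor of relaxin, was the second receptor that rose. It had log2 values of 9.40, 9.03 and 9.45 in KrP samples 1 to 3, against 6.88, 7.84 and 7.75 in WT samples 1 to 3. WT sample 1 was low within its group, and the lowest KrP value still lay 1.19 above the highest WT value. The means were 9.29 ± 0.23 in KrP and 7.49 ± 0.53 in WT samples (SD, n = 3 each), a 3.49-fold rise (95% confidence interval 2.31 to 5.27; log2 fold change 1.80 ± 0.26 SE, limma adjusted p = 0.0149). It ranked 24th by size among the 255 genes called higher. The call ended without KrP 3 (limma adjusted p = 0.101) and without WT 3 (0.0545), where the log2 fold change was 1.72 and 1.93. Differences between samples of the same number were 2.52, 1.19 and 1.70.

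Rxfp2, which binds the relaxin relative INSL3, lay higher in KrP samples without passing the test. The arrays gave log2 values of 8.29, 8.69 and 8.55 in KrP samples 1 to 3, against 7.74, 7.94 and 7.38 in WT samples 1 to 3. The groups did not overlap, and the gap of 0.35 was smaller than the range within KrP (0.40) or WT samples (0.56). The fold was 1.77 (95% confidence interval 1.33 to 2.35; log2 fold change 0.82 ± 0.18 SE, limma adjusted p = 0.0626). With the replicate number as a block it passed (limma adjusted p = 0.0188), in a fit that called 5.33% of all genes higher and 3.02% lower. Leaving out single arrays gave limma adjusted p from 0.0626 (without KrP 1) to 0.264 (without KrP 3).

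Ghr, the growth hormone receptor, was the 1 member that fell. KrP and WT values did not overlap: the log2 value was 8.05, 8.17 and 8.00 in KrP samples 1 to 3, against 8.89, 9.00 and 9.04 in WT samples 1 to 3. Replicates were tight, with a range of 0.17 within KrP and 0.15 within WT samples and a gap of 0.72 between the groups. The means were 8.07 ± 0.09 in KrP and 8.98 ± 0.08 in WT samples (SD, n = 3 each), so that Ghr was 1.87-fold lower in KrP samples (95% confidence interval 1.55 to 2.26; log2 fold change -0.90 ± 0.12 SE, limma adjusted p = 0.0103). By size it ranked 136th of the 228 genes called lower. The call ended without KrP 3 (limma adjusted p = 0.0929) and without WT 3 (0.0759), although the log2 fold change stayed at -0.87 in both fits. In sorted bulk samples, fewer cells of a type and less RNA per cell cannot be told apart.

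Since adipocytes and preadipocytes are known for high Ghr, the adipocyte markers were set beside it. Of 8 markers, 4 lay under the guide to background on average, Adipoq, Cidec, Lep and Retn, and none is at 0 on this scale. Adipoq, the defining adipocyte hormone gene, averaged 5.35 ± 0.28 in KrP and 5.27 ± 0.23 in WT samples (SD, n = 3 each). The summed linear signal of the 8 markers was 977 to 1378 in KrP and 1785 to 2289 in WT samples, without overlap. Lpl, the lipoprotein lipase gene, fell with a log2 fold change of -1.79 (limma adjusted p = 0.00251) and was the 1 marker called. It had 2 probe sets, of which the one with the higher mean is given. Without Lpl, a step chosen after its value was seen, the sum of the other 7 was 558 to 1051 in KrP and 687 to 851 in WT samples, with overlap. Among these, Fabp4 spread widely, at 9.33, 6.76 and 8.23 in KrP samples against 8.64, 7.97 and 8.00 in WT samples. Plin1 averaged 6.48 in KrP and 6.74 in WT samples, and Pparg 7.09 in both. The part of adipocytes and preadipocytes in the Ghr result was not tested.

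The promoter of Ghr, the called receptor that moved the other way from Oxtr, held no match to any of the 4 motifs in the first of its 2 RefSeq windows, on the minus strand of GRCm38.p6 at chr15:3583303-3583602.
Ghr promoter: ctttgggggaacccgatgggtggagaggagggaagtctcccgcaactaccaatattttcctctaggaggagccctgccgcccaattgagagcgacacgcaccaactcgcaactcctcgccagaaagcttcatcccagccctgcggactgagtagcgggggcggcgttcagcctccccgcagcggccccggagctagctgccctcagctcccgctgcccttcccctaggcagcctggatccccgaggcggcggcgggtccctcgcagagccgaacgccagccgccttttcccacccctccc
Its GC content was 67%, against 63.7% in the Oxtr window. Windows were at hand for 5 of the 6 measured receptors, with none for Rxfp1, the other receptor that rose. AGGTCA in Oxtr was the 1 match among their 6 windows. The windows of Avpr1a, Rxfp2 and Fshr and the second of Ghr held none of these letters, which says nothing of the factors themselves.

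Fshr, the receptor of follicle-stimulating hormone, is known from ovary and testis. The arrays gave log2 values of 4.80, 4.73 and 4.77 in KrP samples, against 4.78, 4.86 and 4.80 in WT samples. All 6 arrays lay under the guide to background and the groups overlapped. The log2 fold change was -0.05 with a 95% confidence interval of -0.26 to 0.17 (limma adjusted p = 0.868), and at that level a difference in the transcript would be compressed.

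Leaving out KrP 3 or WT 3 ended 2 of the 3 receptor calls. Of the 3 receptor calls, that of Oxtr alone held without KrP 3 and without WT 3, and all 3 held without KrP 1, KrP 2, WT 1 or WT 2. Over all genes the count of calls was 321 without KrP 1, 1116 without KrP 2, 85 without KrP 3, 230 without WT 1, 256 without WT 2 and 101 without WT 3, against 483 with all arrays.

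**Figure D2:**
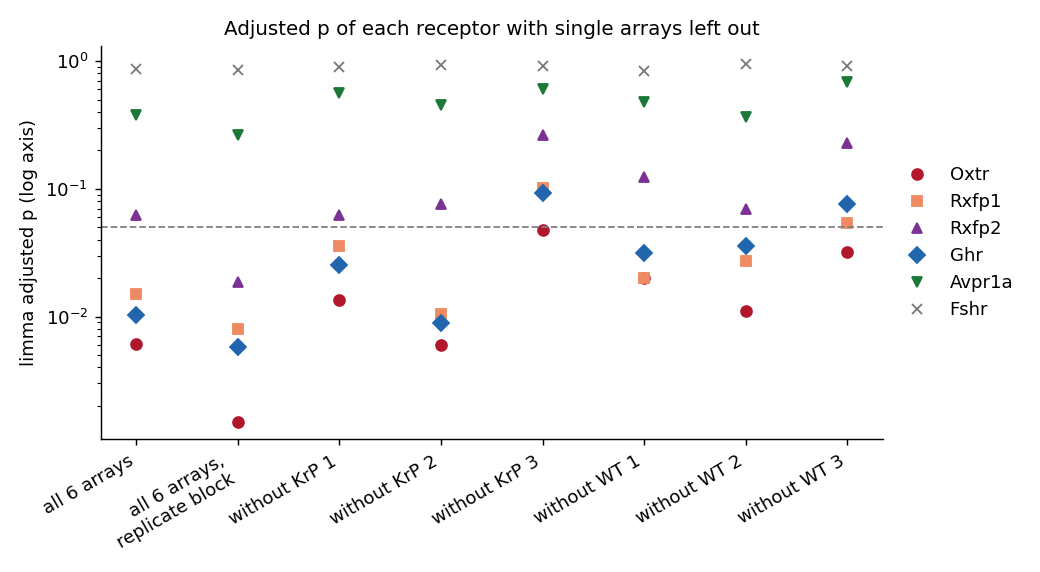
Limma adjusted p (log axis) of each receptor with all 6 arrays, with the replicate number as a block, and with each array left out; the dashed line marks 0.05. Oxtr stays under the line throughout, Rxfp1 and Ghr cross it without KrP 3 and without WT 3, and Rxfp2 lies under it with the block only.

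The hormone genes themselves gave no call. Of 12 measured genes for the ligands and related pituitary hormones, 0 rose and 0 fell by limma, 0 reached an unadjusted p under 0.05, and 0 passed with the block. Their log2 fold changes ran from -0.16 to 0.18, and 7 of the 12 lay under the guide to background, among them Prl, Gh and Rln1. Oxt, the oxytocin gene, had log2 values of 6.30, 6.73 and 6.66 in KrP samples, against 6.36, 7.07 and 6.71 in WT samples, with overlap (limma adjusted p = 0.788). Of 16 measured relatives of the receptors, 0 rose and 0 fell by limma, while 1 was higher and 2 lower at an unadjusted p under 0.05, and 0 rose and 1 fell with the block. The one that fell with the block was Lgr4, an R-spondin receptor of the same leucine-rich family, at 9.35, 9.57 and 9.24 in KrP samples against 10.01, 9.94 and 9.80 in WT samples (log2 fold change -0.53 ± 0.13 SE, limma adjusted p = 0.0902, or 0.0277 with the block). Of the 16 relatives, 8 averaged under the guide to background, among them Avpr1b, Avpr2, Rxfp3, Rxfp4 and Tshr. The other 8 averaged above it, among them Lgr4, Lgr5 and Lgr6 at 9.65, 6.57 and 7.51.

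Downstream of Oxtr and Avpr1a, Gq and calcium signalling gave 1 call. Of 33 measured genes 1 was higher and 0 were lower (with the block 3 and 1), with a median log2 fold change of 0.06 against 0.01 over all genes. The gene that rose was Rgs4, which shortens Gq and Gi signals, at 7.06, 6.46 and 6.53 in KrP samples against 5.90, 5.85 and 5.87 in WT samples (log2 fold change 0.81 ± 0.16 SE, limma adjusted p = 0.0492). All 3 WT values lay under the guide to background. The call ended in 5 of the 6 fits that left out an array, all but that without KrP 2, with limma adjusted p from 0.0527 (without KrP 1) through 0.109 (without WT 1), 0.130 (without WT 2) and 0.152 (without KrP 3) to 0.196 (without WT 3). The Gq subunits themselves gave log2 fold changes of 0.25 for Gna11 (limma adjusted p = 0.271) and -0.20 for Gnaq (0.453). Plcb3, the phospholipase that Gq activates, had 0.67 ± 0.15 (limma adjusted p = 0.0718, or 0.0139 with the block), and Rgs2, another Gq regulator, had -0.55 ± 0.25 (0.346, or 0.0266 with the block). Of 6 measured kinases and arrestins that desensitise such receptors 0 passed by limma or with the block. At an unadjusted limma p under 0.05, 4 were higher, with no share of all genes to set beside that count.

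The Gs and cAMP genes, used by relaxin and gonadotropin receptors, gave 5 calls. Of 22 measured genes 1 was higher and 4 were lower (with the block 4 and 4), with a median log2 fold change of 0.01, as over all genes. The genes that fell were 3 adenylyl cyclases, which make cAMP, and the A-kinase anchor Akap13. Adcy2 was 2.15-fold lower in KrP samples (limma adjusted p = 0.0374), Adcy7 1.71-fold lower (0.0188), and Adcy4 1.68-fold lower (0.0451). Akap13, a scaffold of protein kinase A, had log2 values of 9.73, 10.19 and 9.83 in KrP samples, against 11.13, 11.24 and 11.11 in WT samples (log2 fold change -1.24 ± 0.14 SE, limma adjusted p = 0.00555). Prkar1b, a regulatory subunit of protein kinase A, rose 2.14-fold, with values of 8.37 to 8.93 in KrP samples against 7.43 to 7.68 in WT samples (limma adjusted p = 0.0169). Its relative Prkar2b had a log2 fold change of 0.82 ± 0.20 (limma adjusted p = 0.0859, or 0.0106 with the block). Akap13 alone of these 5 kept its call in every fit that left out an array. Leaving out KrP 3 gave a limma adjusted p of 0.183 for Adcy2, 0.131 for Adcy7, 0.229 for Adcy4 and 0.115 for Prkar1b, and leaving out WT 3 gave 0.134, 0.108, 0.206 and 0.0979. Further calls ended without KrP 1 (Adcy2 0.0570, Adcy4 0.0844), KrP 2 (Adcy4 0.0513), WT 1 (Adcy2 0.0549, Adcy7 0.0675, Adcy4 0.106) and WT 2 (Adcy7 0.0511, Prkar1b 0.0591).

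The JAK-STAT5 machinery of the growth hormone and prolactin receptors gave no call. Of 17 measured kinases, transcription factors and adaptors 0 passed by limma (1 rose and 3 fell with the block, and 3 were higher and 5 lower at an unadjusted p under 0.05). The unadjusted counts have no share of all genes beside them. Jak2, the kinase bound to both receptors, had a log2 fold change of 0.06 ± 0.11 (limma adjusted p = 0.858), or -0.01 without KrP 1. The transcription factors of the pathway had log2 fold changes of opposite sign, with Stat5a at 0.45 ± 0.13 (limma adjusted p = 0.142) and Stat5b at -0.51 ± 0.16 (0.171), neither passing. Of 18 negative regulators 1 rose and 0 fell, also with the block.

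That regulator was Socs2, the suppressor of cytokine signalling known for restraining growth hormone receptor signalling in mice. Its log2 value was 12.59, 12.35 and 12.51 in KrP samples, against 11.60, 11.49 and 11.53 in WT samples. All KrP values stood at least 0.75 above all WT values, and the 1.92-fold rise (log2 fold change 0.94 ± 0.09 SE, limma adjusted p = 0.00299) passed in every fit that left out an array. Socs2 and Cish had 2 probe sets each. The values given for both are from the one with the higher mean, and those of the other are not described here. Cish, a close relative that STAT5 also induces, had log2 values of 6.87, 6.88 and 6.96 in KrP samples, against 6.91, 7.12 and 6.78 in WT samples, with overlap (log2 fold change -0.03 ± 0.12 SE, limma adjusted p = 0.936; 0.06 without WT 2). Among 16 genes known as growth hormone or STAT5 targets in liver, mammary gland or blood, Socs2 included, 3 were higher and 1 lower (with the block 4 and 1), with a median log2 fold change of -0.02.

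Igf1, the growth factor that growth hormone induces in liver, was higher in KrP samples. It had log2 values of 9.71, 9.63 and 9.86 in KrP samples, against 7.60, 7.91 and 8.45 in WT samples, a 3.36-fold rise (limma adjusted p = 0.00708) whose call ended without KrP 3 (0.0604). Bcl6, a repressor that growth hormone lowers in mouse liver, rose 2.16-fold, with values of 10.62 to 10.97 in KrP and 9.49 to 9.83 in WT samples (limma adjusted p = 0.00847). Its call ended without KrP 3 (0.0617) and without WT 3 (0.0593). Cyclin D1 (Ccnd1), which many signals besides STAT5 control, was 6.05-fold lower, at 8.10, 9.46 and 8.11 in KrP samples against 11.58, 10.69 and 11.19 in WT samples (limma adjusted p = 0.016). KrP 2 and WT 2 stood closest to each other there, and the call ended without KrP 3 (0.0955), WT 1 (0.0587) and WT 3 (0.0863). Igfbp3, the main carrier of IGF1 in blood, had a log2 fold change of -0.21 ± 0.12 (limma adjusted p = 0.463), and the milk protein genes Csn1s1, Csn2 and Csn3 each averaged under the guide to background.

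**Figure D3:**
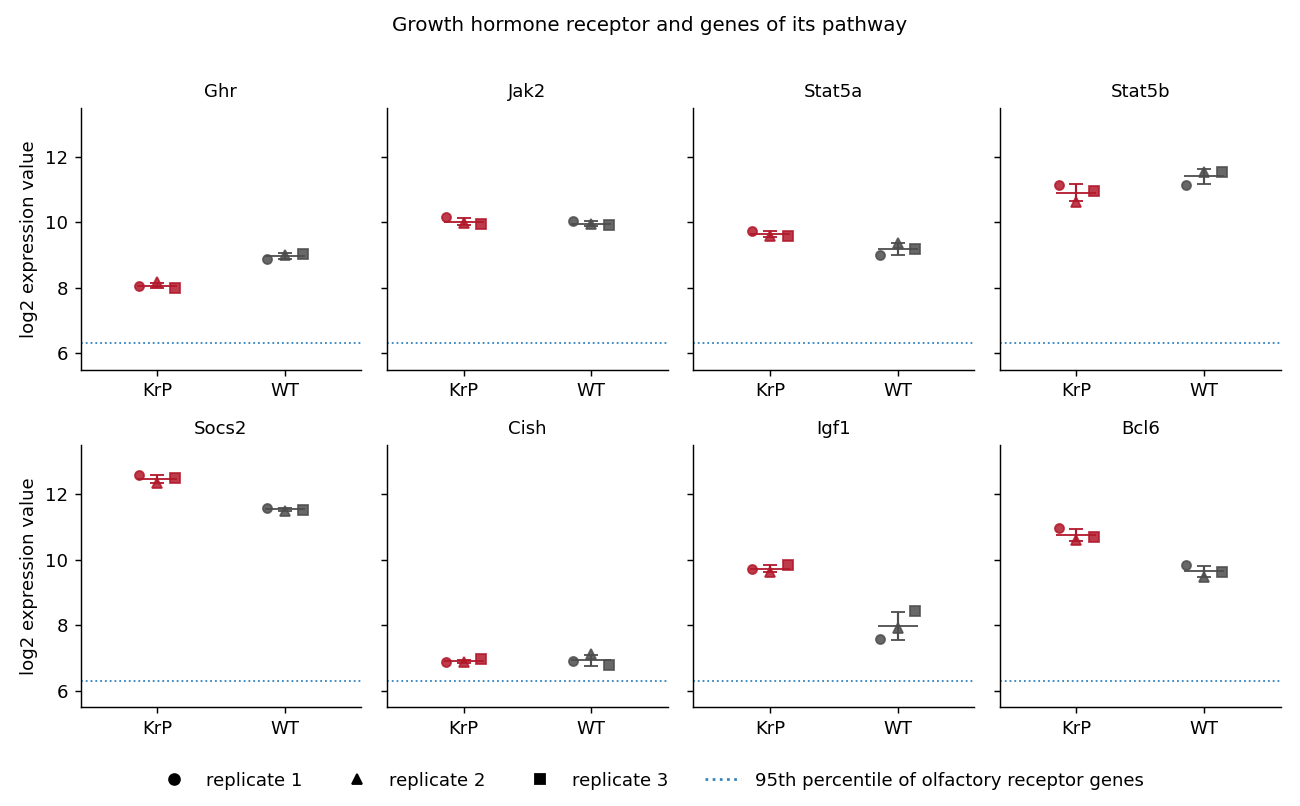
Log2 expression values of Ghr and of 7 genes of its signalling path in every array, KrP left and WT right, with the mean and SD (n = 3 each). Ghr is lower in all 3 KrP samples while Socs2 (12.35 to 12.59), Igf1 (9.63 to 9.86) and Bcl6 (10.62 to 10.97) are higher, and Jak2 and Cish overlap.

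Among 10 measured enzymes that make, cleave or clear such hormones or shed their receptors, 1 fell and 0 rose (with the block 1 and 2). Mme, the neutral endopeptidase neprilysin, which degrades small peptides including oxytocin, was 4.62-fold lower. Log2 values were 7.91, 7.76 and 7.64 in KrP samples, against 9.33, 9.77 and 10.83 in WT samples (log2 fold change -2.21 ± 0.34 SE, limma adjusted p = 0.018). WT 3 stood high within its group, and the call held without it (0.0216) but ended without KrP 3 (0.116) and without WT 2 (0.0519). Adam17, a protease that sheds Ghr, had a log2 fold change of -0.31 ± 0.12 (limma adjusted p = 0.274).

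In the list of contraction, prostaglandin and matrix genes tied to oxytocin or relaxin in reproductive tissue, the calls were 4 matrix enzymes or inhibitors and the cytokine Tgfb1. Of 19 measured genes 1 was higher and 4 were lower (with the block 4 and 7), with a median log2 fold change of -0.09, and the contraction genes and the prostaglandin synthase gene Ptgs2 (limma adjusted p = 0.106) did not pass. Timp1, an inhibitor of matrix metalloproteinases, rose 2.00-fold, with values of 13.00 to 13.27 in KrP and 12.05 to 12.41 in WT samples (limma adjusted p = 0.00707, or 0.0592 without KrP 3). The collagenases and gelatinase that fell were Mmp9 (7.28 to 7.78 in KrP, 8.97 to 9.49 in WT samples, limma adjusted p = 0.0051), Mmp13 (2.31-fold lower, 0.0235) and Mmp1a (2.49-fold lower, 0.0304, with all KrP values under the guide to background). Tgfb1, the matrix-inducing cytokine, was 2.13-fold lower (limma adjusted p = 0.0175). Mmp9 kept its call in every fit that left out an array. Leaving out KrP 3 gave a limma adjusted p of 0.129 for Mmp13, 0.125 for Mmp1a and 0.104 for Tgfb1, and leaving out WT 3 gave 0.0513, 0.122 and 0.0800. Calls also ended without KrP 1 (Mmp13 0.0535, Mmp1a 0.0583), WT 1 (Mmp13 0.0763, Mmp1a 0.0756) and WT 2 (Mmp13 0.0650, Tgfb1 0.0530). Gja1, the gap junction protein that couples uterine muscle cells, had a log2 fold change of -0.40 ± 0.08 (limma adjusted p = 0.0513, or 0.0181 with the block).

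Because oxytocin receptors are known from smooth muscle and myoepithelium, markers of those cells were set beside Oxtr. Of 9 measured, 0 passed by limma, 1 was higher at an unadjusted p under 0.05, and Cnn1 averaged under the guide to background. Their summed linear signal was 3670 to 10405 in KrP and 2948 to 5070 in WT samples, with overlap. Acta2, smooth muscle actin, had log2 values of 10.69, 11.08 and 12.36 in KrP samples, against 9.64, 10.17 and 10.38 in WT samples (limma adjusted p = 0.154, or 0.0138 with the block). Within KrP samples Oxtr was highest in sample 1 and Acta2 in sample 3. Their part in the Oxtr result was not tested. Markers of other cell types were also followed, although the gates on CD31, CD45 and CD49f are those that remove endothelial cells, blood cells and basal epithelial cells. Of them, 0 of 9 luminal mammary, 0 of 10 keratinocyte, 0 of 6 melanocyte and Schwann, and 0 of 7 skeletal muscle markers were called. Several epithelial markers were highest in WT 2: Cldn4, a tight junction gene, was at 6.48 to 6.55 in KrP samples, against 6.44, 9.30 and 6.48 in WT samples 1 to 3. The summed luminal signal was 871, 881 and 838 in KrP samples, against 878, 1781 and 820 in WT samples, and the keratinocyte sum 792, 1046 and 1019 in KrP samples, against 911, 1506 and 843 in WT samples. WT 2 was also the lowest sample for Oxtr, and without it the log2 fold change of Oxtr was 1.78 (limma adjusted p = 0.0111). Of the summed signals, that of 9 endothelial markers was 924 to 1100 in KrP and 1130 to 1463 in WT samples, and that of 7 pericyte markers 658 to 813 in KrP and 848 to 1015 in WT samples, both without overlap. Each separation was lost without 1 marker, chosen after its values were seen. Without Kdr, the endothelial VEGF receptor (log2 fold change -1.41, limma adjusted p = 0.0658, or 0.00158 with the block), the endothelial sum was 765 to 883 in KrP and 723 to 949 in WT samples. Without Cspg4 the pericyte sum was 519 to 585 in KrP and 496 to 585 in WT samples. Cdh5 and Emcn, also endothelial, had log2 fold changes of 0.54 and 0.36 and did not pass. Cldn5, Tek and Cspg4 were lower in KrP samples (limma adjusted p = 0.013, 0.0386 and 0.0298), with all KrP values of Tek under the guide to background, and of 11 haematopoietic markers Csf1r alone was called, as higher (0.0347). The call of Tek ended in all 6 fits that left out an array (limma adjusted p from 0.0524 to 0.125), and that of Cldn5 without KrP 3 (0.0967) and WT 3 (0.0629). That of Cspg4 ended without KrP 3 (0.148), WT 1 (0.0704), WT 2 (0.0921) and WT 3 (0.137), and that of Csf1r without KrP 1 (0.0772), KrP 3 (0.196), WT 1 (0.0957) and WT 3 (0.165). The part of these cells in the receptor results was not tested.

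Oestrogen is known to induce Oxtr in the uterus and progesterone to restrain it, and the genes of both nuclear receptors, Esr1 and Pgr, rose beside Oxtr. Of 7 measured genes in the list of sex steroid and glucocorticoid receptors, which also held the oestrogen-induced gene Greb1, 3 were higher and 0 lower (with the block 4 and 0), with a median log2 fold change of 1.39. Esr1, the main oestrogen receptor, had log2 values of 10.93, 10.24 and 10.59 in KrP samples, against 8.86, 8.80 and 9.08 in WT samples (limma adjusted p = 0.00544), and passed in every fit that left out an array. Pgr, the progesterone receptor, had 9.00, 8.64 and 8.50 in KrP samples, against 7.31, 7.48 and 7.12 in WT samples (limma adjusted p = 0.00707, or 0.0511 without WT 3). Greb1 had 9.83, 8.90 and 9.17 in KrP samples, against 8.21, 7.57 and 7.94 in WT samples (limma adjusted p = 0.0378). Its call ended without KrP 3 (0.154), WT 1 (0.0645), WT 2 (0.111) and WT 3 (0.159). Esr2, the glucocorticoid receptor Nr3c1 and the mineralocorticoid receptor Nr3c2 had log2 fold changes of -0.03, -0.05 and -0.19 and did not pass. Gper1, a membrane receptor for oestrogens, spread widely within groups, with 9.88, 6.96 and 9.03 in KrP samples against 7.96, 6.08 and 7.41 in WT samples. It did not pass with all arrays (limma adjusted p = 0.378), and it passed with the replicate number as a block (0.0086), with array weights, and without KrP 2 (0.048).

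**Figure D4:**
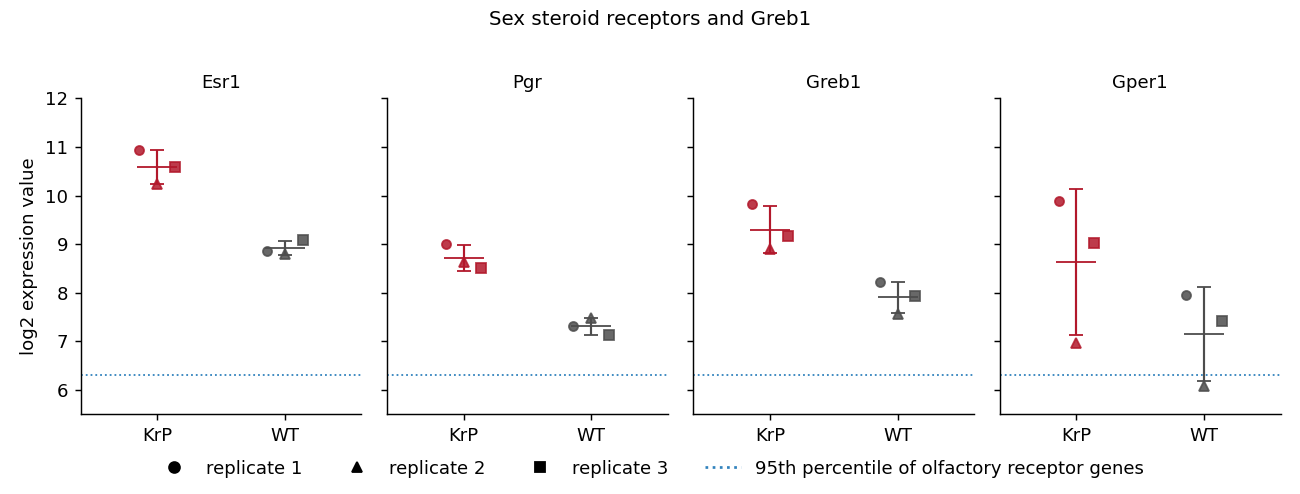
Log2 expression values of Esr1, Pgr, Greb1 and Gper1 in every array, KrP left and WT right, with the mean and SD (n = 3 each). Esr1 (10.24 to 10.93), Pgr (8.50 to 9.00) and Greb1 (8.90 to 9.83) in KrP samples lie above every WT value, whereas the Gper1 groups overlap and its replicate 2 is lowest in both.

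Across all the pathway lists together, 174 distinct genes were measured, of which 9 rose and 10 fell. That made 10.9% called, against 2.18% of all genes, with a median log2 fold change of 0. The lists were chosen with earlier results of these data known, so that share is a description of the lists and no evidence about the pathways.

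**Figure D5:**
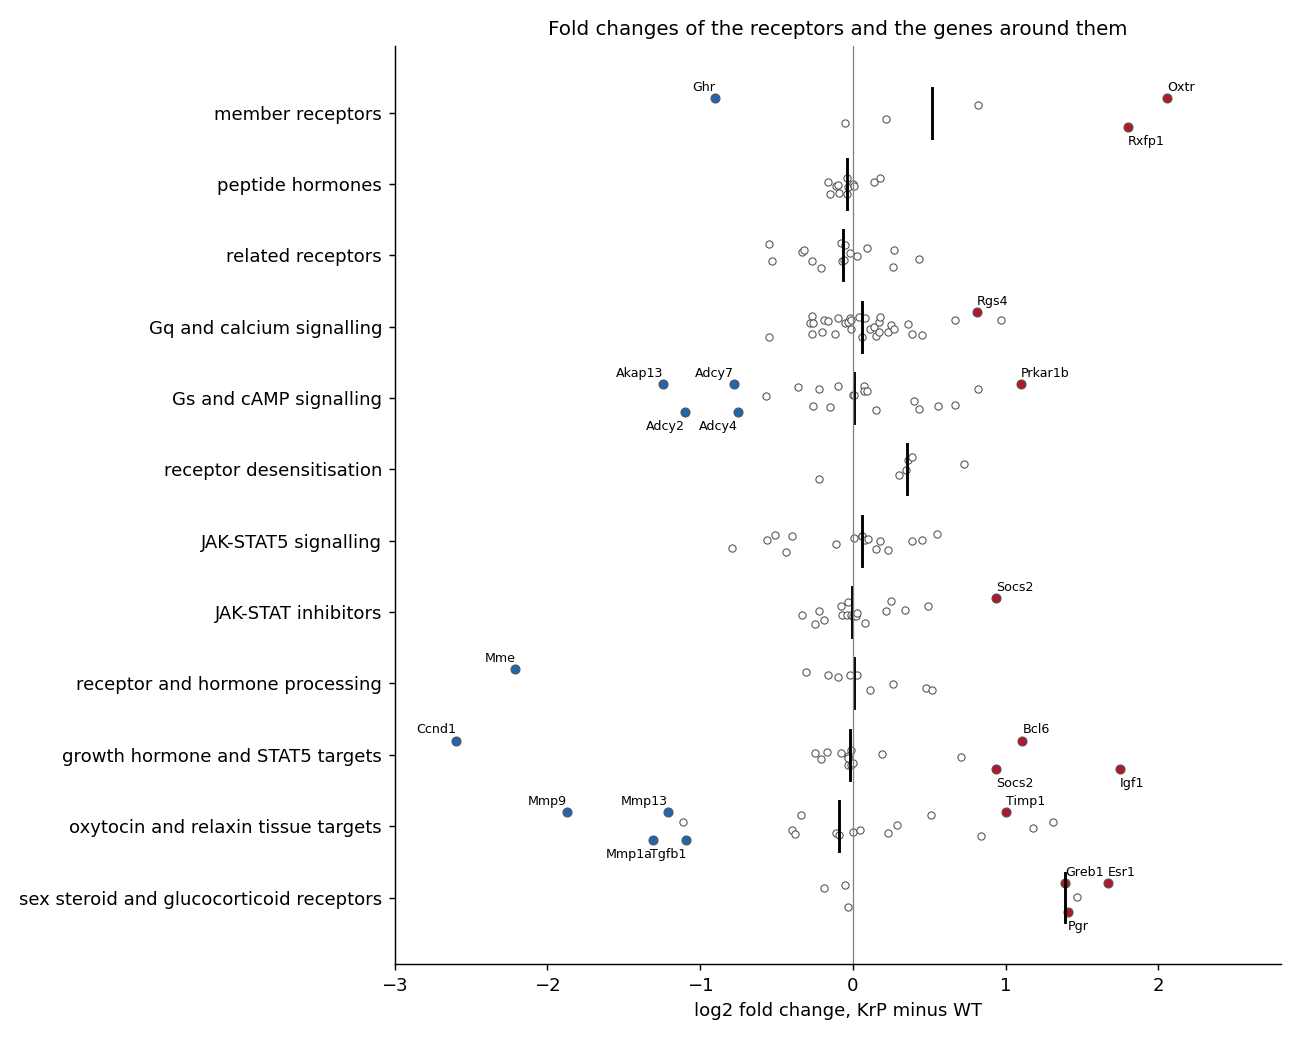
Log2 fold change (KrP minus WT) of every measured gene of each list, with 1 point per gene, filled where limma called it (red higher, blue lower), and a black bar at the list's median. Oxtr (2.06) and Rxfp1 (1.80) lie to the right of every gene of the hormone and related receptor lists, and Mme (-2.21) and Ccnd1 (-2.60) are the points farthest to the left.

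The genes whose pattern over the 6 arrays was most like that of each receptor were found by Pearson correlation among 2039 other named genes above background with a range of at least 1 on the log2 scale (2040 for Avpr1a). These values are descriptions over 6 arrays in 2 groups, and the difference between the groups sets most of each correlation. For Oxtr they were the kinase Nek6 (0.996), the transporter Slco5a1 (0.996) and the efflux pump Abcg2 (0.995). For Rxfp1 they were Lzts2 (0.996), the secreted protease Htra1 (0.995) and the matrix protein Ecm1 (0.990). Rxfp2 was followed most closely by Srgn (0.983), Gpc3 (0.978) and Unc5c (0.974), and Avpr1a by Arhgef5 (0.977), Slc38a4 (0.964) and Slpi (0.962). For Ghr they were the class I antigen presentation activator Nlrc5 (0.992), the Notch target Hes1 (0.990) and Tmtc2 (0.989), all 3 called lower in KrP samples.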

How the data were processed

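The deposited table held log2 expression values made by the authors, 1 per probe set and array, on 6 arrays. The submitters' processing notes list RMA and Partek, with no version. The build and the probe set filter were not given in the sources used here. Cells were collected as viable and CD140-positive, without CD31, CD45, CD117 or CD49f, and 100 ng of RNA was labelled, per the labels' protocols. The descriptions of KrP samples 2 and 3 name another keratin; the K14 of their genotype label was used. Arrays have no read depth, so their number limits the precision.

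Of 34390 probe sets, 23521 had 1 gene symbol in the platform annotation, 1814 several and 9055 none. Symbols were updated by gene ID through RefSeq (GRCm38.p6), which matched 23328. For a gene with several probe sets the one with the highest mean was taken, leaving 22180 genes. KrP minus WT was fitted on all genes with limma 3.58.1 in R 4.3.3 (lmFit, eBayes with a trend), 3 arrays per group. The code was run on simulated normal values, independent between arrays. These held no pairing of replicates and no unequal array quality, so that run does not give the error rate in these data. Promoter windows came from RefSeq (GRCm38.p6).

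Samples share replicate numbers 1 to 3 across groups. The deviations of same-numbered samples from their group means had correlations over genes of 0.414, 0.350 and 0.120, which was treated as a possible pairing; no label states one. Alternatives were that block, the variance settings, array weights, filters on low genes, normalisation, probe set handling and leaving out each array. The members and lists were chosen with earlier results of these data known. Named were all members, list genes that passed, up to 4 per list that did not, and the 3 genes most like each member above background. Linear sums of marker signal are sums of 2 raised to the log2 value. Plots used Python 3.11.15 and matplotlib 3.10.9.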

Additional observations from a re-analysis of the deposited data

How the results depend on the processing

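The log2 fold changes of all 6 receptors kept their sign under every alternative in which they were fitted; Fshr was left out by both filters on low genes. Rxfp2 passed with the replicate number as a block (0.82), with array weights (1.04) and without the lower 50% of genes (0.82), and Avpr1a with array weights alone (0.24). Leaving out each array gave log2 fold changes of 1.78 to 2.21 for Oxtr, 1.50 to 1.98 for Rxfp1, 0.67 to 0.95 for Rxfp2, 0.17 to 0.27 for Avpr1a, -0.95 to -0.87 for Ghr and -0.06 to -0.02 for Fshr. The number of receptors called was then 1 to 3 (1 to 2 higher, 0 to 1 lower), and with array weights 5, of which 4 higher. Over all genes the 483 calls became 1851 with the block (1182 higher, 669 lower), 6410 with array weights (3759 higher, 2651 lower) and 85 to 1116 with an array left out (45 to 682 higher, 40 to 434 lower). The pathway genes called were 22 higher and 18 lower with the block, 44 and 35 with array weights, and 3 to 15 higher and 2 to 11 lower with an array left out. With all probe sets fitted they were 7 higher and 8 lower, and with median centring 8 and 8, against 9 and 10 in the main fit. Over the alternatives that kept all arrays, followed genes other than the receptors lost their call 17 times. Of the other genes followed, Cish (-0.03) turned to 0.11 with array weights, and leaving out an array gave -0.11 to 0.06 for Cish and -0.01 to 0.10 for Jak2 (0.06). The cause of these shifts was not tested. Signal near background limits Fshr, Rgs4, Mmp1a and most hormone genes.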
